A study of Mus musculus with 4 samples.

Results

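The genes described here are 10 imprinted genes that have been tied to hematopoietic stem cells (HSCs) held out of the cell cycle: H19, Igf2, Cdkn1c, Dlk1, Meg3, Grb10, Peg3, Mest, Plagl1 and Ndn. They were chosen by name, with results of these data already known, and each symbol was matched to 1 Ensembl gene, so that 10 of 42367 listed genes are covered. Because of this choice their values are given as a description and without a test. RNA-seq was available for 4 libraries of sorted bone marrow cells from tibiae, femora and humeri of C57Bl6 mice, with 1 library per genotype and population. The first population, called HSCs here, was Lin- cKit+ Sca1+ CD48- CD150+, the second was sorted as CD41low/CD9low HSCs, and the genotypes were Gfi1b WT and Gfi1b KO. In KO mice both Gfi1b alleles were floxed at exons 2 to 4 and were deleted with tamoxifen through a Cre recombinase expressed in all tissues from the Rosa locus, so that loss of Gfi1b was not limited to blood cells. For the WT mice the sources differ, since the methods describe a heterozygous floxed allele with Rosa-Cre and tamoxifen, whereas the deposited design names floxed mice that lack Cre. Bone marrow of several mice was pooled before sorting, from more WT than KO mice, and the ages of the mice are not in the labels. The sources differ on the gate of the HSC libraries, which the results section of the study names CD41+/CD9+ while its methods and the labels give no gate on CD41 or CD9. Whether they also hold CD41low/CD9low cells was not tested. Lineage-positive cells had been removed with antibodies that include Gr1 and CD11b (neutrophils and monocytes), CD3, CD4 and CD8 (T cells) and B220 (B cells). The sample titles name Gfi1 and the genotype labels Gfi1b, and the genotype labels were used.

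An imprinted gene is transcribed mainly from the copy inherited from 1 parent. The copies differ in DNA methylation that was laid down in the germ line and is maintained through cell division. Several imprinted genes lie together in clusters that share 1 control region, and many of them restrain or promote growth. In HSCs of the adult bone marrow, products of such clusters are known for keeping cells quiescent, with the Cdk inhibitor p57 (Cdkn1c) and the H19-Igf2 locus as the best known examples. Gfi1b is a zinc finger repressor that brings the histone demethylase LSD1 to its targets. The counts do not separate maternal from paternal transcripts, so imprinting itself was not measured.

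Gene counts summed to 50781007 (WT) and 41690708 (KO) in the HSC pair and to 12732079 (WT) and 19123185 (KO) in the CD41low/CD9low pair. A count of 3, taken as the smallest that a library can show, corresponds to between 0.0591 and 0.236 CPM (a count scaled to the sum over all genes) in these libraries. The whole-gene count of Gfi1b was higher in both KO libraries (49910 against 9256, and 9741 against 611), and as it includes exons outside the deletion it does not check the deletion. The 12 HSC markers summed to between 2413 and 3111 CPM, with none at 0 in any library. Kit alone made up between 989 and 1262 CPM, so the sum says little about single markers. The CD41 gene Itga2b and Cd9 together reached 732 CPM in WT HSCs and 876 CPM in KO HSCs, against 245 and 338 CPM in the CD41low/CD9low pair. In KO/WT ratios, counts were divided by size factors of the pair, and the 95% interval given with a ratio is an exact (Clopper-Pearson) interval that covers counting error only. With 1 library per group there is no replicate error, so that the ratios carry no replicate check. In RNA of whole sorted populations, fewer cells that transcribe a gene cannot be told apart from less RNA per cell. Following the study, ratios above 1.5 were counted as up and ratios below 0.6 as down. Genes without 10 counts in either library of a pair were left out. By these cutoffs, 3 of the 12 HSC markers were up and 0 down in each population.

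In HSCs, 7 of the 10 imprinted genes were below 0.6 in KO relative to WT, 1 was above 1.5, and 2 lay between the cutoffs. The 7 lower genes were H19, Igf2, Cdkn1c, Meg3, Peg3, Mest and Ndn, the single gene above 1.5 was Plagl1, and Dlk1 and Grb10 lay between. Of all 15910 genes that passed the same filter, 10.3% were below 0.6 and 14.1% above 1.5. The intervals of 6 of the 7 lower genes lay below 1, and that of Igf2 did not. With a pseudocount of 1, Igf2 was at 0.605 and 6 genes were below 0.6. Markers of other lineages differed in the same pair. Those of erythroid cells summed to 1109 CPM in WT and 582 CPM in KO (4 of 8 below 0.6, median ratio 0.611). Megakaryocyte markers summed to 433 CPM in WT and 917 CPM in KO, with 4 of 8 above 1.5. Their part in the levels of the imprinted genes was not tested. The median log2 KO/WT was -1.04 over the 10 genes and 0.00 over all genes. In CD41low/CD9low HSCs 8 of the 10 genes passed the filter, of which 4 were below 0.6 and none above 1.5, where 12% and 13.5% of 14844 genes fell past these cutoffs. Mest and Plagl1 did not reach 10 counts there. H19, Igf2, Meg3 and Peg3 were below 0.6 in both populations, which held for 2.45% of the 14144 genes that passed in both. The share of genes below 0.6 depends on the count. In HSCs it was 32.6% of genes with fewer than 50 counts in the higher library, the class of H19, Igf2 and Dlk1, and 20.2% of those with 50 or more but fewer than 200, the class of Peg3. It was 7.70% from there to fewer than 1000 counts, the class of Cdkn1c, Meg3, Mest and Ndn, and 2.03% from 1000 counts, the class of Grb10. In CD41low/CD9low HSCs the shares in the same classes were 38.8% (Igf2, Dlk1 and Peg3), 24.0% (H19), 3.65% (Cdkn1c, Meg3 and Ndn) and 0.285% (Grb10). Since these ratios were known when the genes were chosen, the shares are given for reading and nothing is drawn from them.

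**Figure D1:**
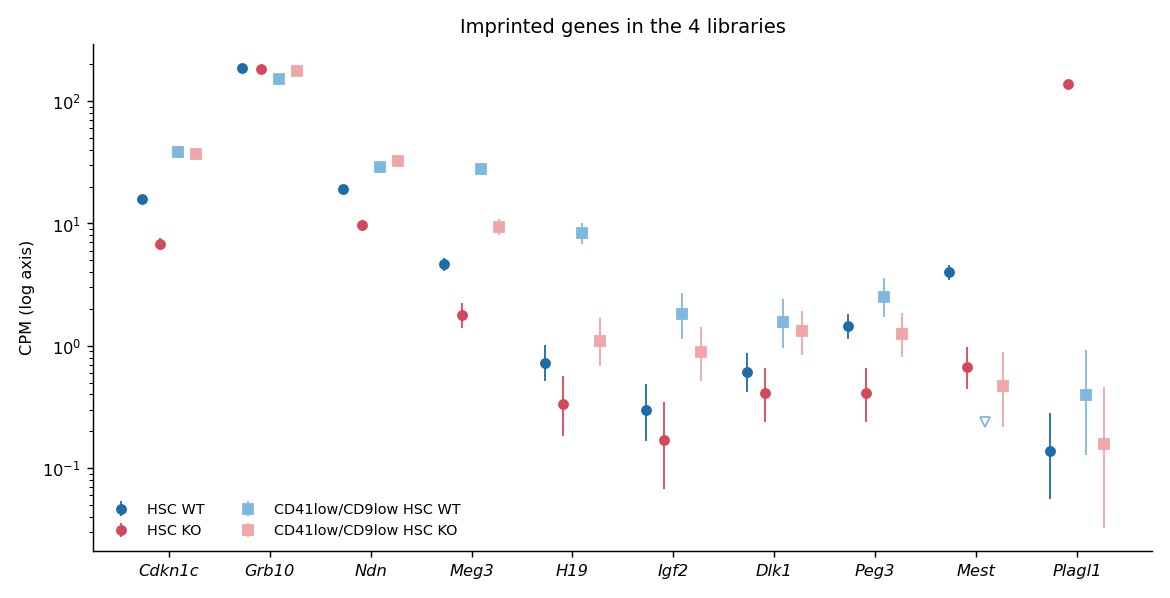
Counts scaled to the library total (CPM, log axis) of the 10 imprinted genes in WT and KO HSCs (circles) and WT and KO CD41low/CD9low HSCs (squares), 1 library each, with Poisson 95% intervals of the count. The open triangle marks Mest in WT CD41low/CD9low HSCs, which had 0 counts, at the limit of 0.236 CPM that 3 counts would give. Plagl1 stood at 139 CPM in KO HSCs and below 0.4 CPM in the other 3 libraries.

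**Figure D2:**
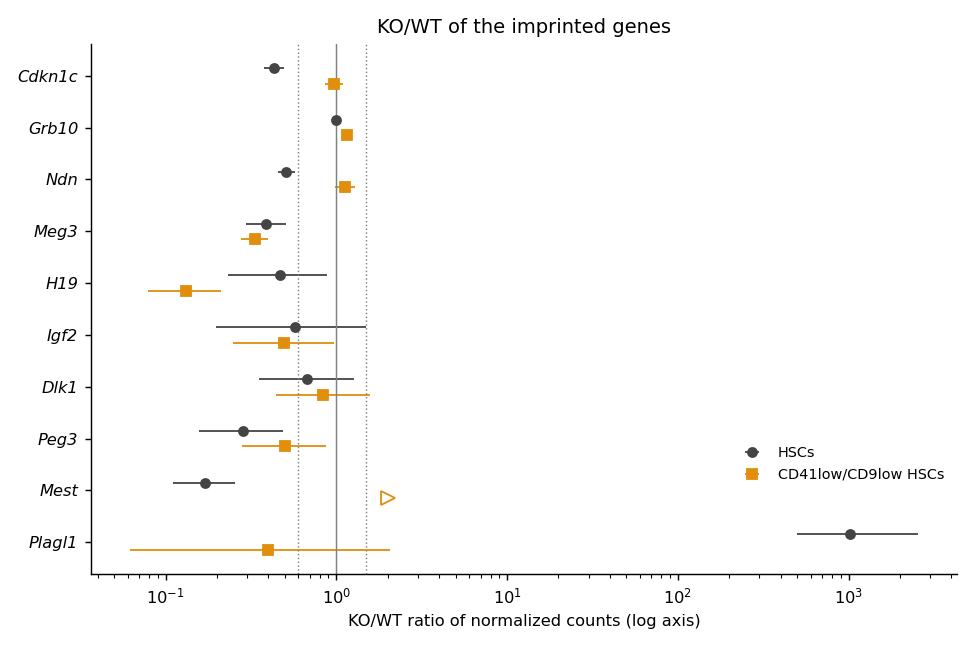
KO/WT ratios of normalized counts (log axis) of the imprinted genes in HSCs (circles) and CD41low/CD9low HSCs (squares), with exact 95% counting intervals. The solid line marks a ratio of 1, dotted lines mark 0.6 and 1.5, and the open triangle is a lower bound for Mest. Cdkn1c and Ndn lie left of 0.6 in HSCs and near 1 in CD41low/CD9low HSCs, whereas Meg3 and H19 lie left of 0.6 in both.

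Plagl1, also known as Zac1, encodes a paternally expressed zinc finger transcription factor that can halt the cell cycle. The gene (ENSMUSG00000019817, chromosome 10, 13060504 to 13131694, forward strand, with GRCm38 coordinates as for all genes here) was nearly silent in WT HSCs. It had 7 counts in WT HSCs and 5811 in KO HSCs, while CD41low/CD9low HSCs had 5 counts in WT and 3 in KO. It was thus near the limit of detection in 3 libraries and abundant in 1. The KO/WT ratio in HSCs was 1025 (95% interval 497 to 2550), the highest of 15775 genes with a WT count, and the next highest was 263 (Ctnna3). Per transcript length it reached 17.8 RPKM (CPM per kilobase of exons) in KO HSCs, just under Grb10 with 20.2 RPKM, which was the highest of the 10 genes there. In CD41low/CD9low HSCs the ratio was 0.4 with an interval of 0.0621 to 2.06, so that a rise above the upper bound lay outside the counting interval, while a smaller rise or a fall was not detectable at this depth. The genes around Plagl1 did not share its ratio. Within 500 kb, a window set after the values were seen, 9 other genes passed the filter, and their HSC ratios ranged from 0.696 (Fuca2) to 2.13 (Phactr2). The nearest on either side, Sf3b5 and Ltv1, were at 0.776 and 1.05.

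The stretches before the start sites of Plagl1, Meg3, Ndn and Grb10 are shown because these genes cover the patterns in the counts: Plagl1 was above 1.5 in HSCs, Meg3 below 0.6 in both populations, Ndn below 0.6 in HSCs, and Grb10 between the cutoffs in both. Each is the 250 bases upstream of a RefSeq start site (GRCm38.p6), 5′ to 3′ on the gene's strand, with AATC and its complement GATT, the core of the sites that Gfi1 and Gfi1b bind, in capitals. They lie at chr10:13090582-13090831 (+), chr12:109540746-109540995 (+), chr7:62348027-62348276 (+) and chr11:12037421-12037670 (-).
Plagl1: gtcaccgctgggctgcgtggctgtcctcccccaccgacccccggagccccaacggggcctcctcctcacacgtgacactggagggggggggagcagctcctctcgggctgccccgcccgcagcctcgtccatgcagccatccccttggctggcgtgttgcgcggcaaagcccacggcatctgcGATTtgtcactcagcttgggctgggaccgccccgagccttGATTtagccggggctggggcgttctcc
Meg3: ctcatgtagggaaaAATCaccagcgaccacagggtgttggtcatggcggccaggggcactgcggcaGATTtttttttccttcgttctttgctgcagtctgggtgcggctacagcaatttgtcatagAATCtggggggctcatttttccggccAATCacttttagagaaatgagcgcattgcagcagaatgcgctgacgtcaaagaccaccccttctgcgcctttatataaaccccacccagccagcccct
Ndn: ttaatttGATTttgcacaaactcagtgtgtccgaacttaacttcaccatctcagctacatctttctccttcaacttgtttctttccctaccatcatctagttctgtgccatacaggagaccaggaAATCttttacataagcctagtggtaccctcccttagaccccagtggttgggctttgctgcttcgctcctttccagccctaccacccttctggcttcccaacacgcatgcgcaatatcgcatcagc
Grb10: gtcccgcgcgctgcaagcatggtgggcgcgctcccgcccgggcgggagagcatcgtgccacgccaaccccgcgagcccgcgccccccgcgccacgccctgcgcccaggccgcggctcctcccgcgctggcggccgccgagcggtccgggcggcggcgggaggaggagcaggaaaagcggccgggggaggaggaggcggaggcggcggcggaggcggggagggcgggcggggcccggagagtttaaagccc
The 4 letters occurred 2 times in the window of Plagl1, 4 times in that of Meg3, 2 times in that of Ndn and 0 times in that of Grb10, counted on both strands. A second RefSeq window of Meg3 (CpG count 0) held the letters 1 time, and one of Grb10 (CpG count 8) held them 2 times. They occur in 69.0% of all 32851 RefSeq windows of this length, so that a match describes the letters and no binding. CpG dinucleotides, at which imprints are methylated, numbered 19 for Plagl1, 10 for Meg3, 5 for Ndn and 40 for Grb10, where the median of all windows was 6. In all, 8 of the 10 genes had 15 such windows.

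Meg3, also called Gtl2, is a maternally expressed long noncoding RNA, and Dlk1, a paternally expressed transmembrane protein related to Notch ligands, is its neighbor in the same cluster on chromosome 12. Meg3 (ENSMUSG00000021268, 109541001 to 109571726, forward strand) had 235 (WT) and 74 (KO) counts in HSCs, and 356 (WT) and 178 (KO) counts in CD41low/CD9low HSCs. In CPM these were 4.63, 1.77, 28.0 and 9.31. Both KO libraries were therefore below their WT library, and both CD41low/CD9low libraries were above both HSC libraries. The KO/WT ratio was 0.389 (95% interval 0.295 to 0.507) in HSCs, against 0.333 (0.277 to 0.400) in CD41low/CD9low HSCs. Dlk1 (ENSMUSG00000040856, 109452823 to 109463336, forward strand) had 31, 17, 20 and 25 counts in the same order of libraries. At these low counts the intervals of its ratios, 0.351 to 1.26 for HSCs and 0.444 to 1.58 for the CD41low/CD9low pair, included 1. Rian, a noncoding RNA transcribed from the maternal chromosome beyond Meg3, had 275, 92, 172 and 167 counts. Its ratio was 0.413 (0.322 to 0.525) in HSCs, beside 0.389 for Meg3, and 0.647 (0.520 to 0.806) in CD41low/CD9low HSCs, beside 0.333. Gm26906, which overlaps 1228 exonic bases of Meg3 on the other strand, had 0 counts in all 4 libraries.

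The distal part of chromosome 7 holds 3 of the genes. H19 is a maternally expressed noncoding RNA and the source of miR-675, and its expression is known to limit signaling by the growth factor Igf2, which is made from the paternal chromosome. H19 (ENSMUSG00000000031, 142575529 to 142578143, reverse strand) had 37 counts in WT HSCs, 14 in KO HSCs, 106 in WT CD41low/CD9low HSCs and 21 in KO CD41low/CD9low HSCs. These correspond to 0.729, 0.336, 8.33 and 1.10 CPM, so that the WT CD41low/CD9low library stood above the other 3. The KO/WT ratio was 0.467 (95% interval 0.233 to 0.884) in HSCs, against 0.132 (0.0785 to 0.212) in CD41low/CD9low HSCs. Markers of other lineages differed in the latter pair as well, those of neutrophils and monocytes most uniformly. All 9 such markers were lower in KO than in WT CD41low/CD9low HSCs, with ratios between 0.0685 and 0.555, and their summed level was 967 CPM in WT and 246 CPM in KO. In HSCs the same markers summed to 438 CPM in WT and 525 CPM in KO, and none of the 9 was at 0 in any library. The 3 genes with the pattern closest to H19 over the 4 libraries, among 12174 genes, were Retnlg, Cd177 and Mmp9, which are known from neutrophils, at distances of 0.38, 0.41 and 0.52 on the log2 scale. The depletion before sorting was directed at cells with Gr1 or CD11b on their surface, and its completeness was not tested. Of 8 erythroid markers, 5 were below 0.6 in KO CD41low/CD9low HSCs and 1 was above 1.5, with a median ratio of 0.168, and 3 were at 0 in KO, although their sum, most of it from Car2, was 864 CPM in WT and 767 CPM in KO. Of the 11 markers of mesenchymal stroma, 7 passed the filter, with 4 below 0.6, 1 above 1.5 and a median ratio of 0.389. Their sum was 59.6 CPM in WT and 67.1 CPM in KO, with 3 and 6 of them at 0, and its rise came from Bgn and Pdgfrb. In the HSC pair stroma markers summed to 108 CPM in WT and 156 CPM in KO, with a median ratio of 1.30. Of the 9 that passed there, 3 were above 1.5 and 2 below 0.6. Megakaryocyte markers went the other way in the CD41low/CD9low pair, with 92.2 CPM in WT and 197 CPM in KO. Of the 7 that passed, 4 were above 1.5 and 0 below 0.6, with a median ratio of 1.96. Endothelial markers had a median ratio of 0.967 there. The part of any of these cells in the level of H19 was not tested.

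Igf2 (ENSMUSG00000048583, chromosome 7, 142650766 to 142666816, reverse strand) had 15, 7, 23 and 17 counts in WT HSCs, KO HSCs, WT CD41low/CD9low HSCs and KO CD41low/CD9low HSCs. With so few counts the ratios of 0.576 (95% interval 0.199 to 1.5) and 0.493 (0.247 to 0.964) are imprecise. Transcripts of Igf2 were no higher in either KO library than in its WT library.

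Cdkn1c encodes p57, which binds and inhibits cyclin-dependent kinases in the G1 phase and is the member of its family most tied to HSC quiescence. The gene (ENSMUSG00000037664, chromosome 7, 143458339 to 143461050, reverse strand) had 813 (WT) and 284 (KO) counts in HSCs, and 492 (WT) and 714 (KO) counts in CD41low/CD9low HSCs. In CPM the levels were 16.0 and 6.81 in HSCs and 38.6 and 37.3 in CD41low/CD9low HSCs. The KO HSC library was the lowest of the 4, and the libraries of the CD41low/CD9low pair were at about the same level. The KO/WT ratio was 0.431 (95% interval 0.375 to 0.494) in HSCs, against 0.967 (0.861 to 1.09) in CD41low/CD9low HSCs. Foxa3, Hgfac and Noxa1 had the closest pattern over the 4 libraries, at distances of 0.25, 0.26 and 0.28 on the log2 scale. Whether the ratios of the populations differ beyond replicate error could not be tested with 1 library each.

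Ndn showed the same order of ratios as Cdkn1c. It encodes necdin, a paternally expressed protein of the MAGE family that binds E2F1 and p53 and is known for restraining HSC proliferation. Ndn (ENSMUSG00000033585, chromosome 7, 62346569 to 62350262, forward strand) had 973 (WT) and 402 (KO) counts in HSCs and 368 (WT) and 619 (KO) counts in CD41low/CD9low HSCs, which are 19.2, 9.64, 28.9 and 32.4 CPM. The ratio was 0.510 (95% interval 0.453 to 0.573) in HSCs, against 1.12 (0.984 to 1.28) in CD41low/CD9low HSCs. As with Cdkn1c, the KO HSC library was the lowest of the 4.

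Mest and Peg3 are paternally expressed genes for a predicted hydrolase and a zinc finger protein. Mest (ENSMUSG00000051855, chromosome 6, 30723547 to 30748465, forward strand) had 202 counts in WT HSCs and 28 in KO HSCs. The ratio was 0.171 (95% interval 0.111 to 0.255), the lowest of the 10 genes in HSCs. In CD41low/CD9low HSCs it had 0 counts in WT and 9 in KO, and 0 counts allow a level of up to 0.236 CPM in that library. Against a floor of 3 counts this is a ratio of at least 2.0, which rests on fewer than 10 counts and was not counted. Zero counts beside a clear signal are not particular to Mest, since 245 genes of the CD41low/CD9low pair and 76 of the HSC pair had 0 counts in 1 library and at least 20 in the other. The exons of Mest overlap those of Copg2 on the other strand over 912 bases, and Copg2 had 7846, 6042, 1435 and 2319 counts. As the strand setting of the counting is not given in the sources used here, reads of the shared bases may have been counted for neither gene. Peg3 (ENSMUSG00000002265, chromosome 7, 6703892 to 6730431, reverse strand) had 74, 17, 32 and 24 counts in the order given for Igf2. It was lower in both KO libraries, with ratios of 0.284 (0.157 to 0.485) in HSCs, against 0.5 (0.282 to 0.876) in CD41low/CD9low HSCs.

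Grb10 encodes an adaptor that binds the insulin and Igf1 receptors and dampens their signaling, and it is expressed from the maternal copy outside the nervous system. Grb10 (ENSMUSG00000020176, chromosome 11, 11930508 to 12038683, reverse strand) had 9483, 7650, 1942 and 3370 counts in the order given for Igf2, which are 187, 183, 153 and 176 CPM. The 4 libraries were close to each other, and the ratios were 0.996 (95% interval 0.966 to 1.03) in HSCs, against 1.16 (1.09 to 1.22) in CD41low/CD9low HSCs.

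**Figure D3:**
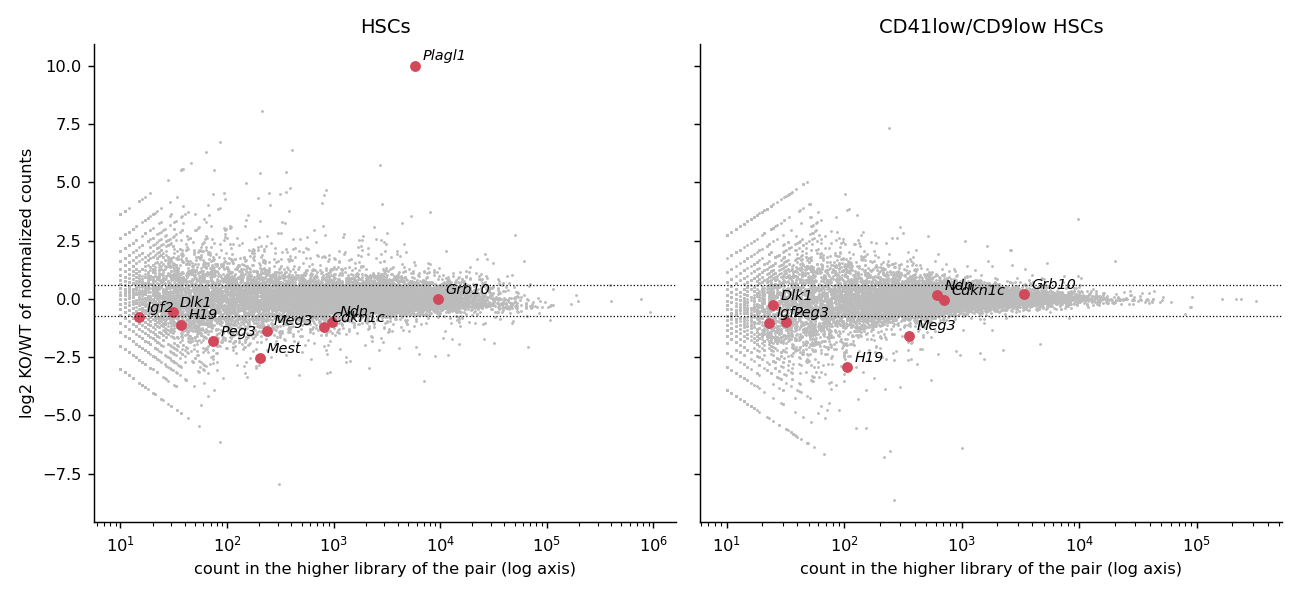
The log2 KO/WT ratio of all genes that passed the filter and had a count in both libraries (grey), against the count in the higher library (log axis), in HSCs and CD41low/CD9low HSCs, with the imprinted genes in red and dotted lines at 0.6 and 1.5. The grey points spread more widely at low counts, where Igf2, Dlk1, Peg3 and, in HSCs, H19 lie, and Plagl1 is the highest point in HSCs.

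Per transcript length, the order of levels in WT HSCs began with Grb10 at 20.5 RPKM, Cdkn1c at 7.85 RPKM, Ndn at 5.19 RPKM and Mest at 1.01 RPKM. H19 with 0.296 RPKM and Meg3 with 0.256 RPKM followed, and their counting intervals overlapped. Peg3, Dlk1 and Igf2 lay between 0.109 and 0.0516 RPKM, each overlapping its neighbor in the order, and Plagl1 with 0.0176 RPKM overlapped Igf2. In WT CD41low/CD9low HSCs the intervals of Cdkn1c (18.95 RPKM) and Grb10 (16.8 RPKM) overlapped at the top, and Ndn (7.82 RPKM), H19 (3.38 RPKM) and Meg3 (1.55 RPKM) followed without overlap. Mest, which was the fourth in WT HSCs, was at 0 there.

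Between the populations, 7 of the 9 genes with at least 10 counts in either WT library had a ratio above 1 for CD41low/CD9low HSCs over HSCs in WT, as did 46.8% of 15636 genes under the same filter. The same 7 were above 1 in the KO libraries too, where 33.7% of 14793 genes were above 1 in both genotypes. Plagl1, with 7 and 5 counts in WT, was left out of this count. H19 showed the highest ratio in WT, 10.9 (95% interval 7.45 to 16.3), and 3.13 (1.52 to 6.66) in KO. Igf2 followed with 5.85 (2.92 to 12.05) in WT and 5.07 (2.0 to 14.5) in KO, and Meg3 with 5.78 (4.89 to 6.84) and 5.02 (3.81 to 6.68). Cdkn1c had ratios of 2.31 (2.06 to 2.58) in WT and 5.25 (4.57 to 6.04) in KO, and Ndn 1.44 (1.28 to 1.63) and 3.21 (2.83 to 3.65). For both genes the higher ratio in KO goes with the lower level in the KO HSC library. Grb10 was at 0.781 (0.743 to 0.820) in WT and 0.919 (0.883 to 0.957) in KO. Mest was at least 17.7-fold lower in WT CD41low/CD9low HSCs, against 3 counts. In KO its ratio was 0.671, with an interval (0.278 to 1.46) that included 1. Plagl1 in KO was at 0.00108 of the HSC level (0.000222 to 0.00315). Markers of neutrophils and monocytes were higher in the CD41low/CD9low library in WT (967 against 438 CPM) and lower in KO (246 against 525 CPM). Those of megakaryocytes were lower in both genotypes (92.2 against 433 CPM in WT, 197 against 917 CPM in KO). The files of the populations list different sets of genes, and differences of sorting and library preparation cannot be told apart from those of the cells.

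**Figure D4:**
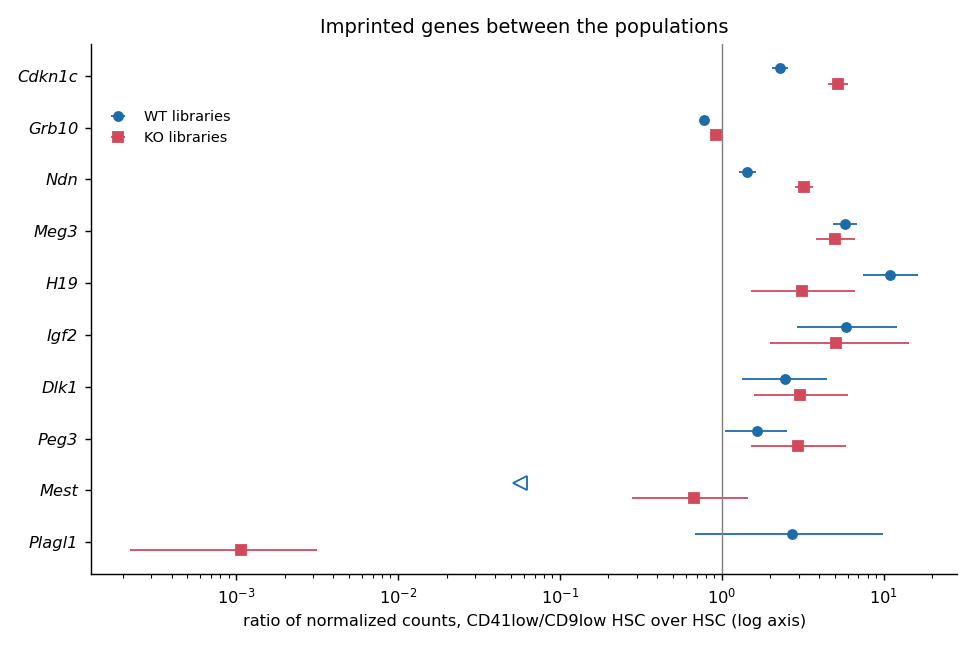
Ratio of normalized counts in CD41low/CD9low HSCs over HSCs (log axis) for the imprinted genes in the WT libraries (circles) and KO libraries (squares), with exact 95% counting intervals. The open triangle is an upper bound for Mest in WT, and the solid line marks a ratio of 1. H19, Igf2, Meg3, Dlk1, Cdkn1c, Ndn and Peg3 lie right of 1 in both genotypes.

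A list of 70 other imprinted genes was examined in the same way, of which 64 could be matched by symbol. In HSCs 41 of them passed the filter, with 6 above 1.5 and 3 below 0.6, and their median log2 ratio was 0.07. In CD41low/CD9low HSCs 42 passed, with 5 above 1.5 and 6 below 0.6, and the median was 0.01. Over all genes the medians were 0.00 and 0.02. The shares of all genes above 1.5 and below 0.6 were 14.1% and 10.3% in HSCs, and 13.5% and 12% in CD41low/CD9low HSCs. An effect of genotype common to both populations was tested on all 4 libraries with edgeR's quasi-likelihood test, which takes the populations as replicates and has 1 residual degree of freedom. Of 14745 genes, 0.319% were called higher and 0.115% lower in KO. At an unadjusted p-value under 0.05 in edgeR's test, 780 of them were higher and 609 lower. DESeq2 called 68 higher and 29 lower of 13601 genes. Of the 39 other imprinted genes in this test, 0 passed at an adjusted p-value under 0.05, while 6 were higher and 2 lower at an unadjusted p-value under 0.05, and DESeq2 called 0. For the difference between populations, 3 of the 39 were called higher and 4 lower in CD41low/CD9low HSCs, where 7.41% and 11.6% of all genes were. Those called were Begain, Rian and Osbpl5 (higher) and Ube3a, Casd1, Slc22a3 and Zrsr1 (lower).

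The Igf2r cluster on chromosome 17 held the highest ratio of these genes in HSCs, that of Airn. Igf2r, a maternally expressed receptor that clears Igf2 from the cell surface, had 3092, 5376, 1523 and 2770 counts in WT HSCs, KO HSCs, WT CD41low/CD9low HSCs and KO CD41low/CD9low HSCs. Its ratio was 2.15 (95% interval 2.05 to 2.24) in HSCs, against 1.21 (1.14 to 1.29) in CD41low/CD9low HSCs. The adjusted p-value of the shared effect was 0.218 in edgeR's test. Airn, the paternal noncoding RNA transcribed across Igf2r from the other strand, had 89, 281, 36 and 49 counts and ratios of 3.90 (3.06 to 5.0) and 0.907 (0.578 to 1.44). Both were above 1.5 in HSCs and below it in CD41low/CD9low HSCs. As the strand setting of the counting is unknown, their reads may not be fully separate. The third gene of the cluster, the transporter Slc22a3, was at 1.2 in HSCs and 1.81 in CD41low/CD9low HSCs.

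In other clusters, Asb4 of the Peg10-Sgce cluster had 67, 134, 35 and 25 counts and ratios of 2.47 and 0.476. Peg10, a gene derived from a retrotransposon, had 332, 216, 58 and 31 counts and ratios of 0.803 and 0.356. Nespas, an antisense RNA of the Gnas locus, was low in both pairs, with 55, 27, 55 and 29 counts and ratios of 0.606 and 0.352. Among the remaining genes with the lowest and highest ratios, Tssc4 was at 0.621 in HSCs, Begain at 0.559, Phlda2 at 1.67 and Mcts2 at 1.75 in CD41low/CD9low HSCs. Of the 70, 62 were listed in the HSC counts and 64 in the CD41low/CD9low counts. None of those that passed the filter in both populations was past the same cutoff in both with at least 20 counts in each pair.

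**Figure D5:**
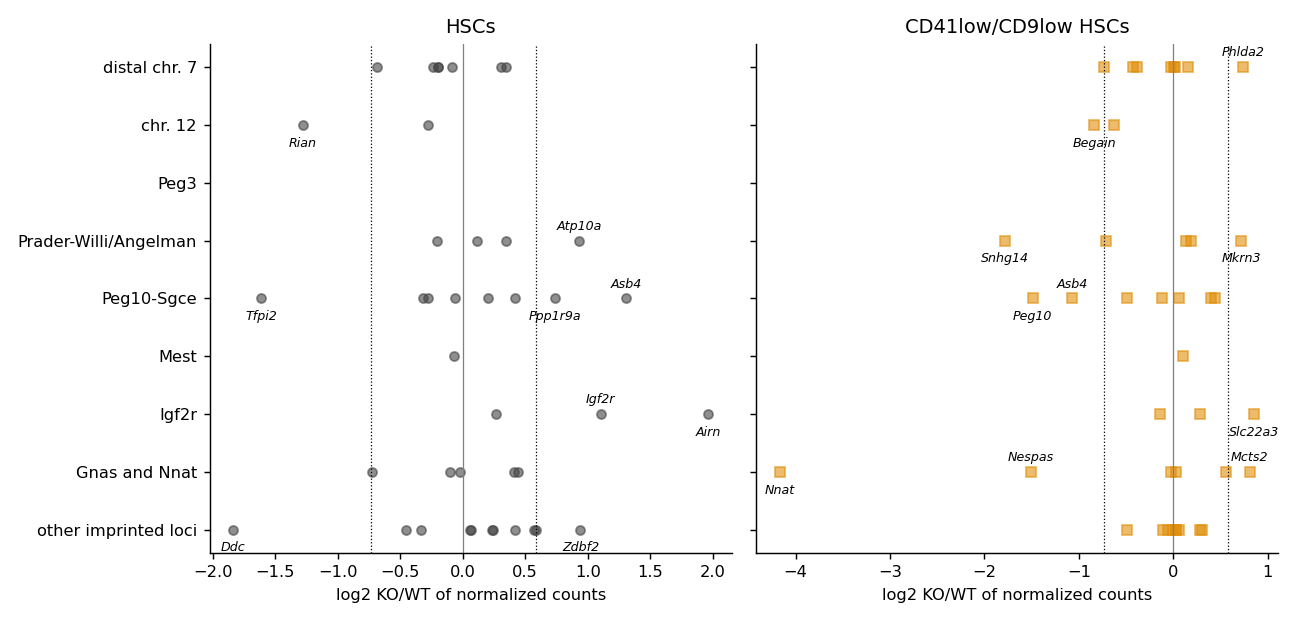
The log2 KO/WT ratio of other imprinted genes, 1 point per gene with a count in both libraries, grouped by cluster (rows), in HSCs (circles) and CD41low/CD9low HSCs (squares). Dotted lines mark ratios of 0.6 and 1.5 and the genes past them are named. Airn and Igf2r lie furthest right in HSCs together with Asb4, and most other points lie between the lines.

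Genes listed as imprint control factors, which include the Tet genes, were mostly between the cutoffs, as most of all genes were. Of 14 genes on this list that passed the filter in each population, among them the DNA methyltransferases and the repressor Trim28, 1 was above 1.5 and 0 were below 0.6. Of all genes, 14.1% were above 1.5 and 10.3% below 0.6 in HSCs, against 13.5% and 12% in CD41low/CD9low HSCs. Most of this list had 1000 counts or more, where only 2.03% (HSCs) and 0.285% (CD41low/CD9low HSCs) of all genes were below 0.6. The single gene was Zfp57, a zinc finger protein that binds methylated imprint control regions, with 767, 1575, 143 and 396 counts and ratios of 2.53 (95% interval 2.32 to 2.77) in HSCs, against 1.85 (1.52 to 2.25) in CD41low/CD9low HSCs. Uhrf1, which guides Dnmt1 to newly replicated DNA, had the lowest ratios, 0.677 and 0.609. In edgeR's shared test 0 of the 14 passed, 1 was higher and 1 lower at an unadjusted p-value under 0.05, and DESeq2 called 1 lower (Uhrf1). Of all 14745 genes, 780 were higher and 609 lower without adjustment, and DESeq2 called 29 of 13601 lower. The adjusted p-values in edgeR's test were 0.0980 for Zfp57 and 0.0989 for Uhrf1.

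Of a list of Igf2 receptors, binding proteins, mRNA-binding proteins and related signaling genes, 10 passed the filter in each population. In HSCs 2 were above 1.5 and 3 below 0.6, and in CD41low/CD9low HSCs 1 was above and 4 below. Of all genes, 14.1% were above and 10.3% below in HSCs, against 13.5% and 12% in CD41low/CD9low HSCs. Igf2bp2, a protein that binds Igf2 mRNA, was below 0.6 in both populations, with 392, 161, 160 and 123 counts and ratios of 0.507 (95% interval 0.419 to 0.611) and 0.513 (0.402 to 0.652). The receptor Igf1r was at 1.41 and 1.23. Of the insulin receptor substrates, Irs2 had ratios of 0.438 in HSCs and 1.23 in CD41low/CD9low HSCs, and Irs1 had 1, 63, 6 and 9 counts, a ratio of 77.8 in HSCs with an interval of 13.5 to 3119. In edgeR's shared test 0 of 10 passed, with 1 higher and 1 lower at an unadjusted p-value under 0.05, and DESeq2 called 0. Without adjustment, 780 of all 14745 genes were higher and 609 lower.

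The Cip/Kip list holds the relatives of Cdkn1c and the cyclins, kinases and pocket proteins of the G1 phase, and all 15 passed the filter. In HSCs 2 were above 1.5 and 1 below 0.6, and in CD41low/CD9low HSCs 0 were above and 2 below. Of all genes, 14.1% were above and 10.3% below in HSCs, against 13.5% and 12% in CD41low/CD9low HSCs. Cdk6, a kinase that drives exit from quiescence, had the highest ratios, 1.86 (95% interval 1.83 to 1.89) and 1.43 (1.35 to 1.51). Ccne1 had the lowest ratio in HSCs (0.578) and Ccnd1, the gene of cyclin D1, the lowest in CD41low/CD9low HSCs among genes with at least 50 counts (0.572, and 0.625 in HSCs). Cdkn1b, the p27 inhibitor, was at 1.29 and 1.18, beside 0.431 and 0.967 for Cdkn1c. In edgeR's shared test 0 of the 15 passed, with 1 higher and 2 lower at an unadjusted p-value under 0.05, and DESeq2 called 1 higher (Cdk6) and 1 lower (Ccnd1). Without adjustment, 780 of all 14745 genes were higher and 609 lower, and DESeq2 called 68 higher and 29 lower of 13601. The adjusted p-values in edgeR's test were 0.0807 for Cdk6 and 0.0777 for Ccnd1.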

How the data were processed

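The mRNA of 2 sorted populations was sequenced in 4 stranded libraries. Per the labels, the authors aligned reads to mm10 with TopHat2 2.0.10, used SAMtools, HTSeq and DESeq, and deposited raw counts per Ensembl gene without normalization. The annotation and the strand setting are not given in the sources used here. HSC files list 38293 genes, CD41low/CD9low files 41214, and 37140 are shared. Reads assigned to no feature numbered 80.0, 105, 62.0 and 60.1 per 100 gene counts, in the order WT and KO HSCs, WT and KO CD41low/CD9low HSCs, and were left out.

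Each pair was normalized with DESeq-style median-of-ratios size factors (KO/WT 0.810 and 1.5). Ratios across populations used size factors over all 4 libraries and the shared genes. CPM and RPKM used the total count on genes and the union of exons in GENCODE M21. edgeR 4.0.16 (R 4.3.3, terms for population and genotype, TMM, filterByExpr, Benjamini-Hochberg) tested 14745 genes, and its step was checked on simulated counts. DESeq2 1.42.0 was an alternative. Similar patterns were ranked by Euclidean distance between centred log2(CPM + 0.5) profiles among genes with a mean of at least 2 CPM.

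The 10 genes and all lists were chosen with earlier results of these data known. Named are the 10 genes, other genes past a cutoff in the same direction in both populations (for imprinted genes with at least 20 counts in each pair) or past the shared test, the 3 highest and 3 lowest imprinted genes per population with at least 50 counts, and the highest and lowest gene of each pathway list with at least 50 counts. Igf1r, Cdkn1b and the genes of the last part of the closing section were named after their values were seen. Of the listed symbols, Phf17 was matched through a RefSeq synonym. Alternatives were TMM, total count and 4-library size factors, a correction for exon length, a pseudocount of 1, a minimum of 50 counts or none, and 1/1.5 as cutoff.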

Additional observations from a re-analysis of the deposited data

Results flagged for a closer look

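Asb4, an imprinted gene of the Peg10-Sgce cluster, lay on opposite sides of 1 in the populations, with a KO/WT ratio of 2.47 in HSCs (95% counting interval 1.83 to 3.36) and of 0.476 in CD41low/CD9low HSCs (0.273 to 0.819). Irs2, an insulin receptor substrate, showed the opposite order, with 0.438 in HSCs (0.397 to 0.483) and 1.23 in CD41low/CD9low HSCs (1.05 to 1.43). With 1 library per group these differences were not tested.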

How the results depend on the processing

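Of 95 recomputed KO/WT ratios of the 10 genes, 94 stayed within their counting interval and none changed direction, and 1 moved: Grb10 in HSCs was at 0.887 with a correction for exon length. With a pseudocount of 1, Igf2 in HSCs was at 0.605, so that 6 in place of 7 genes were below 0.6 there. The counts of all genes past the cutoffs depended on the minimum count. With at least 50 counts, 1431 genes were above 1.5 and 792 below 0.6 in HSCs, and 982 and 702 in CD41low/CD9low HSCs. Without a minimum, 4354 and 2649 were past them in HSCs, and 3121 and 2547 in CD41low/CD9low HSCs. The shared genotype effect was called for 47 genes higher and 17 lower in the main analysis, for 254 and 166 without a filter, and for 68 and 29 with DESeq2. The cause was not tested. No paired analysis was possible because replicate numbers that could pair libraries need more than 1 library per group, and the shared fit, with population as its block, is the closest to one. Leaving out a library was not possible for the same reason. Depth limits H19, Igf2, Dlk1, Peg3, Mest in the CD41low/CD9low pair and, outside KO HSCs, Plagl1, which rest on few counts. Intervals cover counting error alone, and reads without molecular identifiers are not independent molecules.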

Other observations

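Further genes of the lists, picked after their values were seen, lay past a cutoff in at least 1 population. In HSCs, Atp10a of the Prader-Willi/Angelman cluster was at 1.90 (95% counting interval 1.82 to 1.99) and Ppp1r9a of the Peg10-Sgce cluster at 1.67 (1.62 to 1.72). Cdkn1a, the p21 inhibitor, had 201 counts in WT and 98 in KO HSCs, a ratio of 0.602, and 33 and 6 counts in WT and KO CD41low/CD9low HSCs, a ratio of 0.121 (0.0415 to 0.293). Lin28b, an RNA-binding protein of fetal HSCs, had 45 and 11 counts in HSCs and 6 and 25 counts in CD41low/CD9low HSCs. Mirg, the last noncoding RNA of the Meg3 transcription unit, had 5 and 2 counts in HSCs, and 0 and 22 counts in CD41low/CD9low HSCs.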
